A study of Mus musculus with 2031 samples.

Results

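The guidance cues and guidance receptors of the developing nervous system were followed through single adult astrocytes and the few other cells sorted with them. The members were the 67 genes whose symbol names a class 3 to class 7 semaphorin, a plexin, a neuropilin, an Eph receptor, an ephrin, a Slit, a Robo, a netrin or an Unc5 receptor, out of 49671 gene identifiers counted. They comprised 20 semaphorins, 9 plexins, 2 neuropilins, 14 Eph receptors, 8 ephrins, 3 Slits, 4 Robos, 3 netrins and 4 Unc5 receptors. The choice rested on symbols alone, and no measured value entered it.

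Cells came from wild-type C57BL/6J mice at postnatal day 56. All cells were sorted as positive for ACSA-2, a surface antigen of astrocytes, and negative for the oligodendrocyte antigen O1 and the dead-cell dye 7-AAD, and no group received a treatment. The 2 cortical suspensions came from 1 animal each, littermates, and each of the 2 hippocampal suspensions was pooled from 4 littermates of a litter of its own, so that region cannot be told apart from litter and pooling. Smart-seq2, which amplifies whole transcripts from single sorted cells and adds no molecular tags, gave 2030 cells with 600758 to 3238215 gene counts (median 1458411). In the copy of the study's assignment used here, 1982 of these cells had a type, of which 1781 were in the astrocyte subtypes AST1 to AST5 and the others mural, endothelial, microglial, oligodendrocytic or neuronal; 15 further cells had no type and 33 were not in the list. These types were drawn from the same counts, so a comparison between them describes the members in groups already set apart by expression. The replicate is the suspension throughout, and levels are gene counts scaled to a fixed library total (CPM) of the summed cells of a type in a suspension.

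The labelled types carried their defining markers, apart from Rbfox3, a marker of mature neurons, which had no count in the 17 neurons. The 10 astrocyte markers summed to 43623 to 46207 CPM in the astrocyte sums and were found as 2 or more per cell in every astrocyte. The 7 mural markers reached 48932 to 58889 CPM in mural cells against 104.5 to 145.8 CPM in astrocytes. Endothelial sums also held 10008 to 25818 CPM of mural markers, and 76.7% of the 30 endothelial cells had 2 or more of them. Mural sums in turn held 3170 to 3485 CPM of astrocyte markers and 265.8 to 480 CPM of endothelial markers. Neuronal sums held 491.7 to 512.4 CPM of astrocyte markers, and 88.2% of neurons had 2 or more of them. The part of these mixed markers in the results on vascular cells and neurons was not tested.

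Guidance cues act in ligand and receptor pairs that steer growing axons by attraction or repulsion. Semaphorins bind plexins, with neuropilins as co-receptors of the secreted class 3 forms; ephrins, held at the membrane, bind Eph receptor tyrosine kinases and can signal in both directions; Slits bind Robos; netrins bind Unc5 receptors and Dcc. Many of these genes stay on after development, in synapse maintenance, in vessel growth and in contacts between glia and their neighbours.

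Sema4a, Sema4b and Sema6d, 3 semaphorins of the membrane-bound classes, were the members that edgeR called between astrocyte subtypes in the main fit. In AST4 they were 3 of 48 members (6.25%), against 4.72% of all genes. Their promoters are printed because these were the members called in AST4. Each line is the 250 bases before the first start listed by RefSeq (GRCm38.p6), 5′ to 3′ on the strand of the gene, with matches to the searched motifs in capitals. The motifs, searched on both strands, were the GC box GGGCGG, the NFI half-site TTGGCA, the SOX site ACAATG and the E-box CAGCTG.
Sema4a: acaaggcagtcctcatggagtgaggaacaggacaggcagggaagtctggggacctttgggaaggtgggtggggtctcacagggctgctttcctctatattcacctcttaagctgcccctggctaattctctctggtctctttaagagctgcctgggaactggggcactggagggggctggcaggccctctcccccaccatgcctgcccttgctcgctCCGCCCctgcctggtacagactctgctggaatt
Sema4b: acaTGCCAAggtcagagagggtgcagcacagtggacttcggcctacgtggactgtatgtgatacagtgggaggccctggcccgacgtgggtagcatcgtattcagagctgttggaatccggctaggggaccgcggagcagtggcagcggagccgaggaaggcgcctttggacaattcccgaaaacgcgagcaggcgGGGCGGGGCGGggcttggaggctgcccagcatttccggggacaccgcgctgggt
Sema6d: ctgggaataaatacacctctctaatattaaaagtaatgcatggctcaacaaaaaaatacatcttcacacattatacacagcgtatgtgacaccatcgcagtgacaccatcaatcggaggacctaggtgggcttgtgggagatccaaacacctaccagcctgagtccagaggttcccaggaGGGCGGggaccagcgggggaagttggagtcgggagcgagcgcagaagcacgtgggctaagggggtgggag

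The Sema4a window lies at chr3:88461183-88461432 on the minus strand, the Sema4b window at chr7:80186620-80186869 on the plus strand and the Sema6d window at chr2:124089719-124089968 on the plus strand. All 3 held the letters of a GC box, which 32.7% of 32851 RefSeq promoters hold. Sema4b had 2 of them, overlapping by a base, and was the only window of the 3 with an NFI half-site, found in 12.3% of all promoters. None of the 3 held the SOX site (10.7% of promoters) or the E-box (13%). They differed in base composition. Sema4b carried 20 CG pairs and Sema6d 9, whereas Sema4a carried 2, against a median of 6 over all promoters. RefSeq listed 4 starts for Sema4a and 2 each for the other genes, and the GC box stood before 3 of the 4, both Sema4b starts and 1 of the 2 Sema6d starts. A match is a description of letters, and no site was measured. Of the 67 members, 58 had a promoter entry.

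Nearly all members left some trace in astrocytes, but few were common. Counts were found for 62 of the 67 members in the 1781 typed astrocytes, yet 19 were seen in more than 5% of cells, 4 in more than 25% and 1 in more than 50%. A median of 4 members was found per astrocyte, with a range of 0 to 11, and the median was 4 in each of the 4 suspensions. Thinning every cell to 600000 gene counts left that median at 4. Mean levels reached 10 CPM for 22 members and 50 CPM for 9.

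Sema4b was the most widespread member. It encodes a class 4 transmembrane semaphorin, and at least 1 count was found in 90.1% of astrocytes. Its level was 216.2 and 234.7 CPM in the cortical sums and 149.4 and 165.9 CPM in the hippocampal sums. Among cells with a count the median was 78.5 CPM, and 39.2% of all astrocytes had more than 100 CPM. A Sema4b count was found in 4.48% of mural cells, of which there were 27, 12, 48 and 47 in cortex 1, cortex 2, hippocampus 1 and hippocampus 2, and in 0 of the 30 endothelial cells, which allows a share of up to 10%.

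Sema4a, a related class 4 semaphorin known also as an immune receptor ligand, was found in fewer cells at a higher level. It was seen in 44.2% of astrocytes, with a median of 606 CPM in cells with a count. The sums gave 337.8 and 348.5 CPM in cortex and 266.6 and 268.9 CPM in hippocampus. Per kilobase of exon Sema4a led all members with a mean of 56.5 CPM, ahead of Sema4b at 33.9. Sema6d, a transmembrane semaphorin that binds plexins of class A, was seen in 40% of astrocytes with a median of 273.96 CPM in those cells.

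Plxnb1 was the leading receptor. This plexin of class B is a receptor for class 4 semaphorins. It was seen in 43.9% of astrocytes, with a median of 371.5 CPM in cells with a count and a mean of 20 CPM per kilobase of exon. The neuropilin Nrp1 and the plexin Plxnb2 were seen in 15.2% and 18.7% of astrocytes.

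Among Eph receptors Ephb3 led at 16 CPM per kilobase, with counts in 22.3% of cells, and Ephb1 followed at 9.8 CPM per kilobase. Of the ephrins, the membrane-anchored ligand Efna2 was highest at 12.48 CPM per kilobase and was seen in 11.9% of astrocytes. The remaining families were near the lower end. Robo2 led the Robos at 1.45, Unc5c the Unc5 receptors at 0.52, Ntn4 the netrins at 0.32 and Slit2 the Slits at 0.10 CPM per kilobase.

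**Figure D1:**
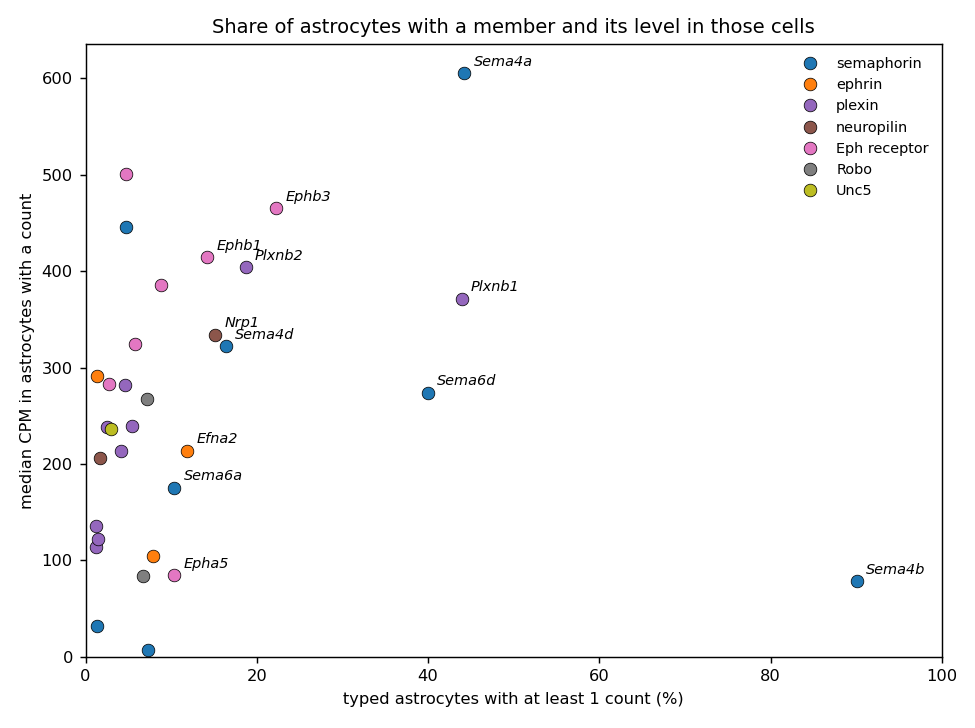
Each point is a member with counts in at least 20 typed astrocytes. The x axis gives the percentage of the 1781 astrocytes with at least 1 count, the y axis the median CPM in those cells, and the colour the family. Sema4b stands alone at 90.1% with a median of 78.5 CPM, while Sema4a and Plxnb1 lie near 44% at 606 and 371.5 CPM.

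Each cell type was led by other members. By the mean CPM over suspensions, the highest type was neuronal for 21 members, astrocytic for 15, endothelial for 9, oligodendrocytic for 7, mural for 6 and microglial for 5. The remaining 4, Epha8, Robo3, Sema3d and Sema3f, had no count in the sums of any type. Sums of the smaller types rest on few cells, 17 neurons and 9 oligodendrocytic cells among them, so this order is a description.

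**Figure D2:**
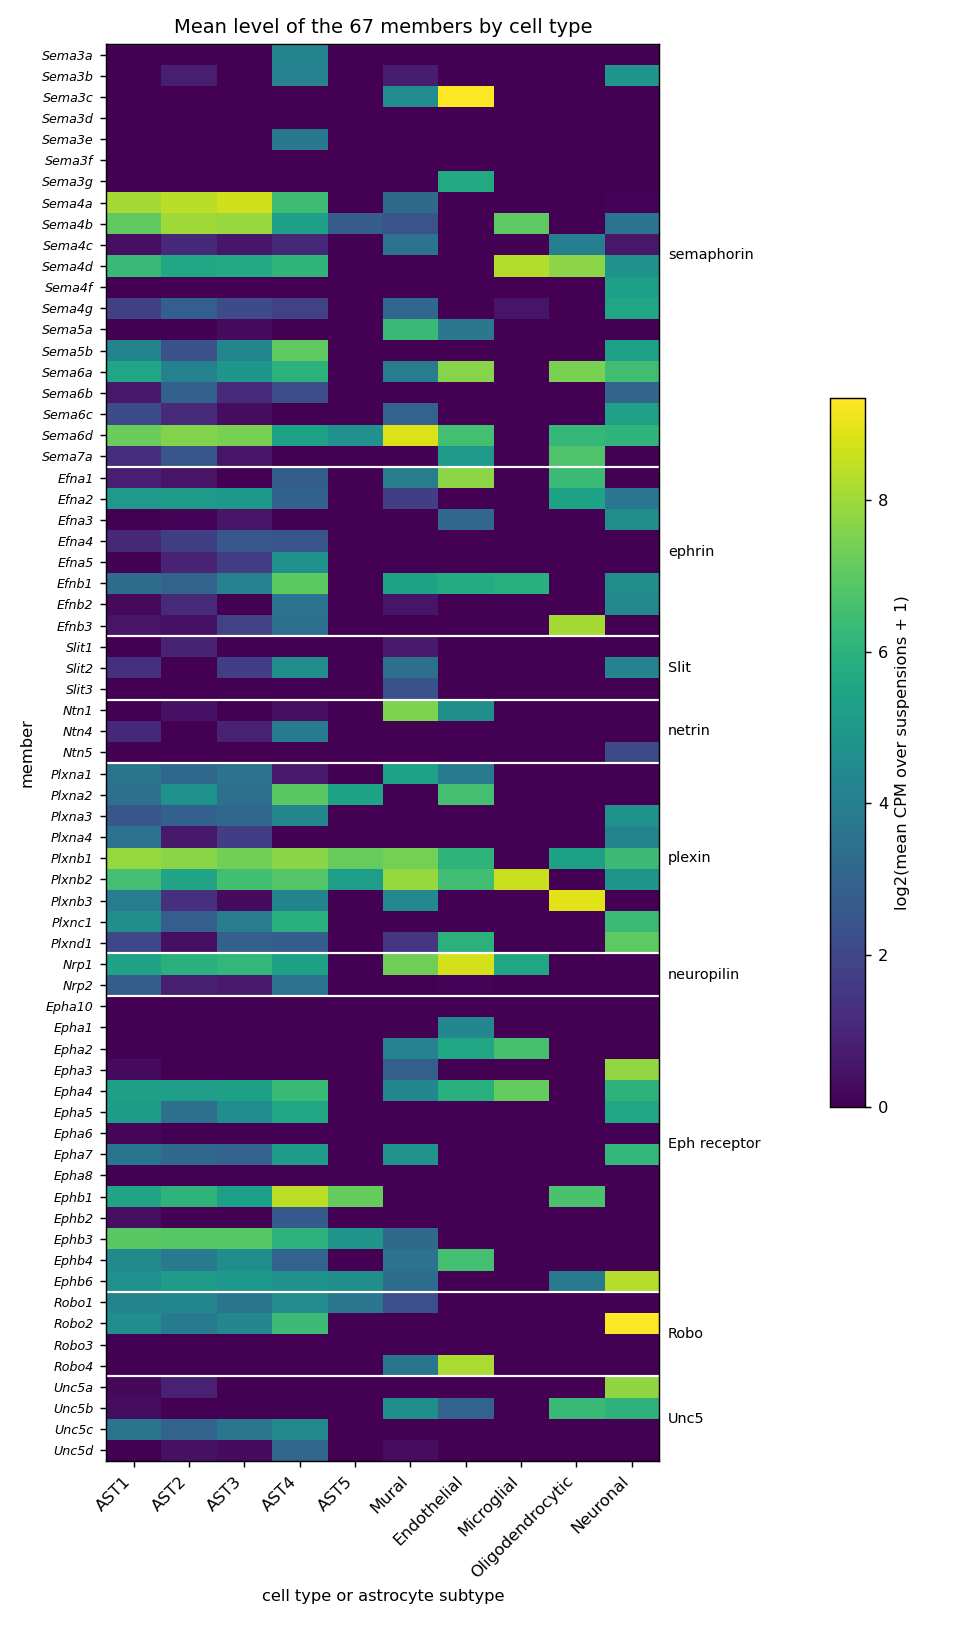
The heat map shows all 67 members (rows, grouped by family) in the 5 astrocyte subtypes and 5 other types (columns). Colour is log2 of the mean CPM over suspensions plus 1. Sema4a, Sema4b, Sema6d and Plxnb1 are bright in AST1 to AST3, Ephb1 and Efnb1 are brightest among the subtypes in AST4, and Sema3c, Nrp1 and Robo4 are bright in endothelial cells.

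Mural cells, the pericytes and smooth muscle of vessel walls, were compared with astrocytes over the 4 suspensions. Of the 40 members that passed the low-count filter, 2 were higher in mural cells, Ntn1 and Plxnb2, and 14 were lower (edgeR quasi-likelihood test, Benjamini-Hochberg adjusted p under 0.05 over 15887 genes). Over all genes tested the background was 4.92% higher and 22.5% lower, 27.4% in all. Over the members the median log2 change was −4.14, and it was −1.27 over all genes, the latter also with genes at 0 set at the bound that 3 counts give. DESeq2 called 26 members against a background of 47.5%. The CPM sums of 24 members did not overlap between the types, against 40.4% of all genes. With the suspension as a replicate block edgeR called 2 members, Ntn1 and Robo2, and 4.19% of all genes. Without cortex replicate 1 it called 3 members and 4.36% of all genes. The log2 scaling factors, which lower the fitted level of a sum by their size, were 0.30 for mural and −0.30 for astrocyte sums.

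Ntn1 encodes netrin 1, a secreted cue that attracts or repels axons according to the receptor. It reached 196.9 and 110.9 CPM in the cortical mural sums and 172.7 and 261.9 CPM in the hippocampal ones, with counts in 28.4% of mural cells. Astrocyte sums held 0.151 ± 0.253 CPM (SD, n = 4), with counts in 0.674% of cells. No mural sum overlapped an astrocyte sum. The fitted log2 change was 10.27 (SE 2.08) with an edgeR adjusted p of 0.0117, and 0.0346 with the block. Over all alternatives the adjusted p ran from 5.33e-17 to 0.0738, and the call was lost without hippocampus 1 (0.0587) or hippocampus 2 (0.0738). Among cells with a count the median was 534 CPM, and the cell with most Ntn1 held 8.81% of its mural counts.

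Plxnb2, a class B plexin, gave 238.7 and 303.02 CPM in the cortical mural sums and 157.4 and 220.7 CPM in the hippocampal ones against 84.3 ± 12.4 CPM (SD, n = 4) in astrocytes. The groups did not overlap, and the log2 change was 0.84 (SE 0.24, edgeR adjusted p = 0.0440; 0.157 with the replicate block). The call was lost with any suspension left out, at adjusted p values from 0.0710 without hippocampus 1 to 0.188 without cortex 1. Sema6d was the highest semaphorin of mural cells, with counts in 59% of them. It ran from 242.5 CPM in cortex 1 through 414 in cortex 2 and 432 in hippocampus 1 to 737 in hippocampus 2, all above the 155.2 ± 9.36 CPM (SD, n = 4) of astrocytes. Its log2 change of 0.90 (SE 0.31) did not pass the adjustment (edgeR adjusted p = 0.0831). Sema5a, a semaphorin with thrombospondin repeats, averaged 80.5 ± 47.4 CPM (SD, n = 4) in mural cells and 0.0726 in astrocytes, with an edgeR adjusted p of 0.0756.

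By family, the leading mural members per kilobase of exon were Sema6d at 43.2, Plxnb2 at 29.8, Ntn1 at 29.6 and Nrp1 at 16.4 CPM. They were followed by Efnb1 at 11.9, Unc5b at 3.86, Epha2 at 3.53, Robo4 at 2.15 and Slit3 at 0.67. These levels rested on few cells, with counts of Efnb1 in 9.70%, Unc5b in 7.46% and Epha2 and Robo4 in 2.99% of mural cells each. A single cell held 40.2% of the mural counts of Epha2 and 42.2% of those of Robo4. Of mural cells 8.96% had 2 or more endothelial markers, and the part of this was not tested. Efnb1 averaged 41.2 ± 40.7 CPM (SD, n = 4) and Nrp1 160.6 ± 106.98 CPM in mural cells, and neither differed from astrocytes beyond the spread (edgeR adjusted p = 0.741 and 0.557). Nrp1 ranged from 21.8 CPM in hippocampus 2 to 280.6 CPM in cortex 2.

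Of the 14 members lower in mural cells, 11 had no count in any mural cell, which allows a share of up to 2.24%. For 7 of these the astrocyte share was above that limit. They were the Eph receptors Epha5 and Ephb1, the plexins Plxna2, Plxna3 and Plxnc1 and the semaphorins Sema4d and Sema5b. Ephb1 was seen in 14.2% and Sema4d in 16.5% of astrocytes. For the other 4 without a count, Efna4, Efna5, Efnb3 and Plxna4, the astrocyte share was within the limit, and a lower share was not detectable at this number of cells. The remaining 3 that fell, Robo2, Sema6b and Unc5c, had a count in 0.746% of mural cells each. Robo2, the Slit receptor, was the firmest, with 0 CPM in 3 mural sums and 0.0181 CPM in hippocampus 2 against 24.6 ± 9.54 CPM (SD, n = 4) in astrocytes (edgeR adjusted p = 0.00342; 0.0469 with the block). Over all genes, 65.7% of those called lower likewise had no count in mural cells.

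Sema4a and Sema4b were also low in mural cells without passing the test. Sema4b averaged 4.30 ± 8.12 CPM (SD, n = 4) there, and Sema4a 8.39 ± 9.70 CPM, with edgeR adjusted p values of 0.0544 and 0.132. Of the counts of Sema4b in mural cells, 54.6% lay in a single cell.

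A list of further pathway genes held axon guidance co-receptors and signalling genes outside the members. Of these, 17 of 48 tested were called, 6 higher and 11 lower, against 27.4% of all genes. Ptk2, the focal adhesion kinase, was higher (820 ± 71.3 against 111.8 ± 7.20 CPM, SD, n = 4, edgeR adjusted p = 0.000253). Ngef, an exchange factor downstream of Eph receptors, and the adhesion molecule Nrcam were lower, at 0.0174 and 0.0251 CPM against 459 ± 111.8 and 510 ± 48.6 CPM in astrocytes. Srgap3, a GTPase-activating protein in the Slit and Robo pathway, had no count in mural cells and 64.4 CPM in astrocytes.

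Endothelial cells line the vessels, and only 30 were typed, 3 to 12 per suspension. Of 41 members tested, 3 were higher than in astrocytes and 21 lower, against a background of 3.23% higher and 31.6% lower over 15474 genes (34.8% in all). With the replicate block 1 member and 1.62% of all genes were called. The CPM sums of 26 members did not overlap between the types, against 46.1% of all genes. The median log2 change of the members was −5.26 and that of all genes −2.55 when genes at 0 in a group were set at the bound that 3 counts give. The log2 scaling factors were 0.49 for endothelial and −0.49 for astrocyte sums.

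Sema3c, a secreted semaphorin, was the member that held with the block. It gave 564 and 569 CPM in the cortical endothelial sums and 378.3 and 1027 CPM in the hippocampal ones, with counts in 70% of the cells. In astrocytes it reached 0.0008 CPM and 0.112% of cells. Its edgeR adjusted p was 0.00314, and 0.0034 with the block, and over all alternatives it did not exceed 0.0456.

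Nrp1, the co-receptor of class 3 semaphorins and of vascular endothelial growth factor, gave 523, 421, 372.7 and 397 CPM in cortex 1, cortex 2, hippocampus 1 and hippocampus 2. All 4 lay above the astrocyte sums, which averaged 61.9 ± 12.2 CPM (SD, n = 4). Counts were found in 73.3% of endothelial cells and 15.2% of astrocytes, and the log2 change was 1.87 (SE 0.36, edgeR adjusted p = 0.00765; 0.0754 with the block). Robo4, the endothelial Robo, had no count in 1781 astrocytes and a count in 43.3% of endothelial cells. It gave 105.7, 135.8 and 133.5 CPM in cortex 1, cortex 2 and hippocampus 2 and 766 CPM in hippocampus 1 (edgeR adjusted p = 0.00666; 0.0732 with the block).

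Further endothelial members were high but uneven. Efna1 led per kilobase at 114.1 CPM. Its sums were 0 in cortex 2, 84.9 in cortex 1, 118.2 in hippocampus 1 and 632 CPM in hippocampus 2 (edgeR adjusted p = 0.0769). Sema6a averaged 198.7 ± 202.6 CPM (SD, n = 4) and the ephrin receptor Ephb4 93.9 ± 74.3 CPM, and the values of both overlapped those of astrocytes.

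All 21 members lower in endothelial cells had 0 of 30 cells with a count, which allows a share of up to 10%. For 7 of them the astrocyte share was above that limit, namely Sema4a, Sema4b and Sema4d, Ephb1, Ephb3 and Epha5, and the ephrin Efna2. For the other 14 a lower share was not detectable at this number of cells: Efna4, Efna5, Efnb3, Epha7, Ephb6, Plxna3, Plxna4, Plxnb3, Plxnc1, Robo1, Robo2, Sema4g, Sema5b and Unc5c. Of all genes called lower, 82.5% had no endothelial count. Of the further pathway genes, 2 of 48 were higher and 16 lower, against 3.23% and 31.6% of all genes. Ablim1, an actin-binding protein downstream of netrin, reached 1409 ± 235.6 CPM against 46.4 ± 3.41 CPM (SD, n = 4; edgeR adjusted p = 0.00169).

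**Figure D3:**
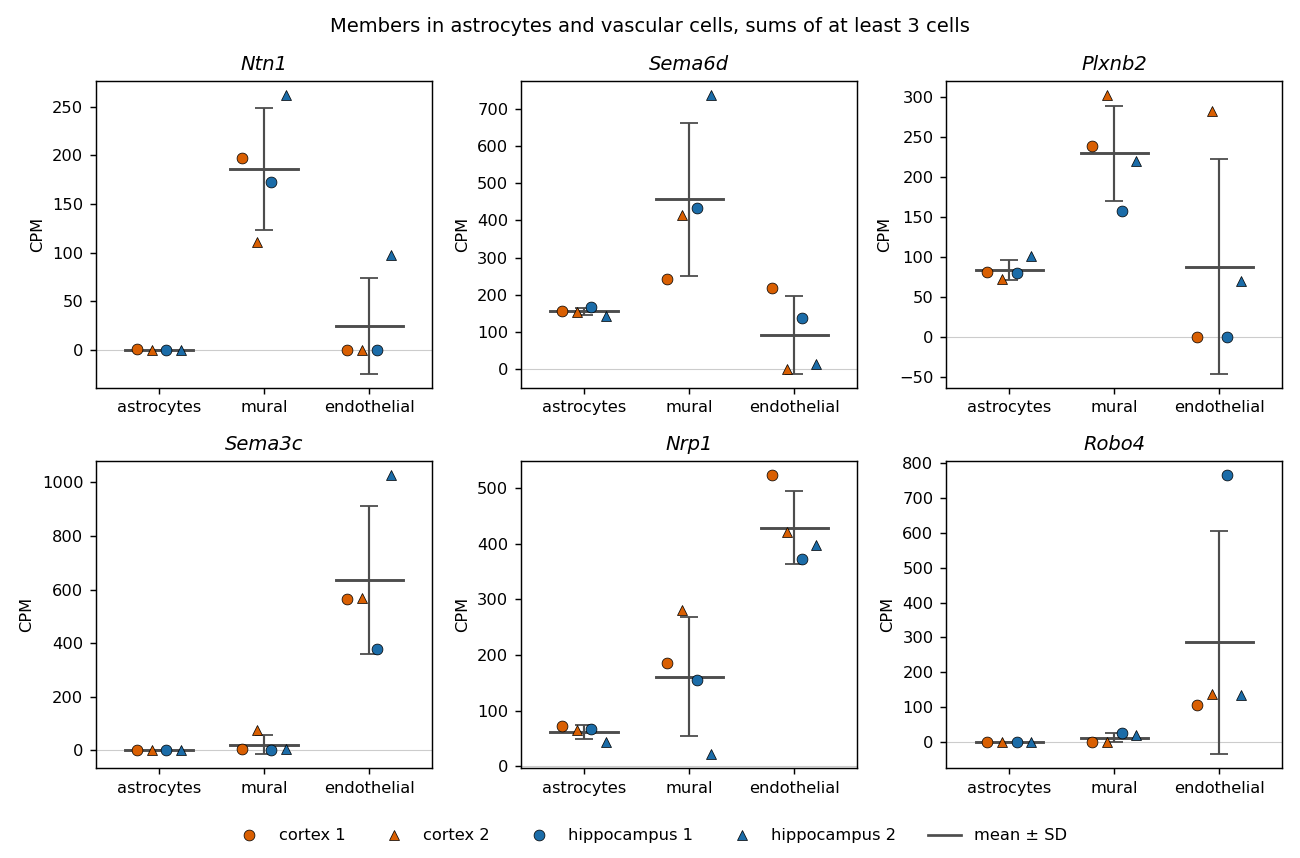
CPM of 6 members in the sums of astrocytes, mural cells and endothelial cells, with a point per suspension (colour for region, shape for replicate) and the mean ± SD. Ntn1 is high in mural cells alone apart from hippocampus 2 of the endothelial cells, Sema3c and Nrp1 are high in all 4 endothelial sums, and Robo4 of hippocampus 1 stands at 766 CPM.

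Neurons were found only in hippocampus, 8 and 9 cells in its 2 suspensions, and were compared with the astrocytes of the same suspensions. Of 48 members tested, 3 were higher and 13 lower against a background of 1.78% and 19.6% (21.4% in all over 16798 genes). DESeq2 called 29 members against a background of 50.5%. The CPM sums of 33 members did not overlap between the types, against 68.7% of all genes. At an unadjusted p under 0.05 edgeR gave 23 (39.6% of all genes). None was called by edgeR with the replicate block (0.0% of all genes), without the low-count filter (0.0331%), with thinned cells (0.81%) or without AST4 and AST5 cells (0.0371%), and with 2 sums a side the adjusted p of every call was 0.0488 or 0.0489. Members had a median log2 change of −1.71 and all genes one of −1.24 with genes at 0 set at the bound that 3 counts give. The log2 scaling factors were 0.52 for neuronal and −0.52 for astrocyte sums.

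The 3 higher members were receptors. Robo2 gave 555 and 743 CPM in neurons against 29.8 and 35.1 CPM in astrocytes, a log2 change of 3.29 (SE 0.32), with counts in 76.5% against 8.53% of cells. Ephb6, an Eph receptor without kinase activity, gave 301.7 and 335.8 CPM against 23.4 ± 7.82 CPM (SD, n = 2), a log2 change of 2.73 (SE 0.42). Plxnd1, a receptor of Sema3e, gave 92.7 and 165.3 CPM against 4.43 ± 0.357 CPM (SD, n = 2), a log2 change of 3.83 (SE 0.71). In each the neuronal and astrocyte sums did not overlap. Epha3 at 42.5 and 411 CPM and the netrin receptor Unc5a at 351.7 and 94.9 CPM were uneven and did not pass.

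Of the 13 lower members, 11 had no count in 17 neurons, which allows a share of up to 17.6%, and in none of the 11 was the astrocyte share above that limit. They were Efna1, Efna4, Efnb3, Ephb1, Ephb3, Ephb4, Nrp2, Plxna1, Plxnb3, Robo1 and Unc5c. Sema4a was found in 5.88% of neurons and 38.7% of hippocampal astrocytes, and Nrp1 in 5.88% and 13.8%. Over all genes 88.9% of those called lower had no count in neurons. Of 53 further pathway genes 3 were higher and 5 lower, against 1.78% and 19.6% of all genes. Flrt3, an adhesion molecule that binds Unc5 receptors and Robo1, gave 509 ± 1.26 CPM in neurons against 5.44 ± 0.713 CPM (SD, n = 2), and Dscaml1 gave 201.6 ± 7.23 against 9.10 ± 2.65 CPM.

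Astrocyte subtypes were compared with each other in sums of at least 20 cells, which left 4 sums of AST1, 3 of AST2, 4 of AST3 and 2 of AST4. AST4 was found almost wholly in hippocampus, with 41 and 48 cells, and AST2 mostly in cortex. AST5, with 26 cells, had no sum of that size. Each subtype was set against the equally weighted mean of the other 3, over 18503 genes of which 48 were members.

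Sema4a, Sema4b and Sema6d fell in AST4. Of the 48 members none was higher and these 3 (6.25%) were lower, against a background of 1.07% higher and 3.65% lower (4.72% in all). At an unadjusted p under 0.05 edgeR gave 13 members (16.3% of all genes), DESeq2 called 14 (23.1%) and limma on mean CPM called 12 (9.29%). Both AST4 sums lay above every sum of AST1 to AST3 for 13 members, against 11.8% of all genes, and below every one for 4, against 5.23%. Members had a median log2 change of 1.19 and all genes one of −0.11, or −0.13 with genes at 0 in a group set at the bound that 3 counts give.

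Sema6d gave 50.4 and 28.9 CPM in AST4 of hippocampus 1 and hippocampus 2. In the same suspensions AST1 held 163.1 and 144.2 CPM and AST3 213.4 and 189.4 CPM, and no sum of AST1 to AST3 was below 132.2 CPM. The log2 change was −2.58 (SE 0.24, edgeR adjusted p = 0.00011). Counts were found in 15.7% of AST4 cells and 41.8% of AST1 to AST3 cells.

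Sema4b gave 30.2 and 46 CPM in AST4, against 127.7 and 147.8 CPM in AST1 and 292.1 and 285.8 CPM in AST3 of the same suspensions. The log2 change was −2.82 (SE 0.30, edgeR adjusted p = 0.00031), with counts in 58.4% against 92.9% of cells. Sema4a gave 92.5 and 79.9 CPM in AST4, 224.97 and 249.4 CPM in AST1 and 491 and 448 CPM in AST3. The log2 change was −2.21 (SE 0.28, edgeR adjusted p = 0.000851), with counts in 14.6% against 46.6% of cells. In the cells with a count the median of Sema4a was 531 CPM in AST4 and from 549 to 725 CPM in AST1 to AST3, and that of Sema4b was 18.2 CPM in AST4 and from 56.6 to 112.8 CPM in AST1 to AST3.

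All 3 kept their call in each of the 12 alternatives, with the highest adjusted p at 0.0263 for Sema6d, 0.0260 for Sema4b and 0.0395 for Sema4a. With a hippocampal suspension left out AST4 has a lone sum, assumed to vary like those of the other subtypes. Among the 12 alternatives was the fit of AST4 against the hippocampal sums of AST1 and AST3 alone. The 10 astrocyte markers summed to 32181 to 34395 CPM in AST4 and to 42666 to 48337 CPM in AST1 to AST3, and the part of this difference was not tested. The log2 scaling factor of the AST4 sums was 0.27, which lowers their fitted levels.

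Other members were high in AST4 without passing the adjustment in the main fit. With the replicate block edgeR called 4 members in AST4 and 3.72% of all genes, and the 4 included Sema4a, Sema4b and Sema6d, which were lower. Ephb1, a receptor of ephrins of class B, gave 379.8 and 296.03 CPM in AST4 and at most 83.1 CPM in any sum of AST1 to AST3, with counts in 47.2% against 12.3% of cells. Its log2 change was 2.59 (SE 0.70, edgeR adjusted p = 0.0699). Efnb1, a ligand of such receptors, gave 136.4 and 118.5 CPM against at most 23.9 CPM, with counts in 47.2% against 5.86% of cells (log2 change 3.26, SE 1.22, edgeR adjusted p = 0.210). Sema5b gave 118.5 and 140 CPM against at most 33.6 CPM (log2 change 2.77, SE 1.42, edgeR adjusted p = 0.374). In all 3 the AST4 sums lay above every sum of AST1 to AST3. Sema4b, Ephb1 and Efnb1 are among the marker genes that the study drew from these cells, so their direction is not independent evidence. The study gives Sema4b as enriched in AST2.

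Among the remaining members of AST4, Efna2 gave 8.69 and 4.12 CPM against a mean of 31.9 CPM (edgeR adjusted p = 0.0613). Robo2 gave 47.8 and 120.8 CPM against a mean of 18.3 CPM. Plxnb1 did not differ beyond the spread, at 164.4 and 248.9 CPM against a mean of 199.6 CPM (log2 change −0.38, SE 0.27). A median of 6 members was found per AST4 cell against 4 in AST1 and AST2 and 5 in AST3, and the median number of all genes found per cell was 2562 in AST4 against 1992, 2077 and 2440.5; its part in the difference was not tested. Of 53 further pathway genes 3 were called in AST4, all lower, against 4.72% of all genes. Nrcam gave 276.6 ± 3.84 CPM (SD, n = 2) against a mean of 518 CPM, Ngef 212.4 ± 46.8 against 477 CPM, and Mical2, an enzyme of the semaphorin pathway that acts on actin, 24.4 ± 8.40 against 89 CPM.

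Sema4b and Sema6d were called higher in AST2, and these with Sema4a in AST3. In AST2 Sema4b and Sema6d were higher than in the mean of AST1, AST3 and AST4, 2 of 48 members against a background of 1.37% higher and 0.384% lower (1.76% in all). Sema4b gave 286.9 and 275.9 CPM in the cortical AST2 sums and 200.3 CPM in hippocampus 2, and 121.7 and 127.7 CPM in the cortical AST1 sums. The log2 change was 1.38 (SE 0.21, edgeR adjusted p = 0.00733). The study gives Sema4b as enriched in AST2 from the same cells, so this direction is not independent evidence. Sema6d gave 167.3, 175.3 and 222.05 CPM in AST2 (log2 change 1.03, SE 0.16, edgeR adjusted p = 0.00924). Sema4a had a log2 change of 0.63 (SE 0.20) that did not pass (edgeR adjusted p = 0.229). With cortical sums only, which hold no AST4, neither passed, nor did any other of 16957 genes. Sema4b had a log2 change of 0.81 there (edgeR adjusted p = 0.354) and Sema6d of 0.19 (edgeR adjusted p = 0.760). Over the alternatives the adjusted p ran from 3.92e-08 to 0.354 for Sema4b. Leaving out cortex 1 or cortex 2 left neither call, Sema4b alone held without hippocampus 2 (edgeR adjusted p = 0.0173), and Sema6d alone held without hippocampus 1 (0.00629).

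In AST3 Sema4a, Sema4b and Sema6d were all higher than in the mean of AST1, AST2 and AST4. These were 3 of 48 members, against a background of 1.26% higher and 0.0649% lower (1.32% in all). DESeq2 called 7 members in AST3 (11.8% of all genes) and limma on mean CPM 5 (1.5%). Sema4b changed by 1.26 (SE 0.18, edgeR adjusted p = 0.00475), Sema4a by 1.16 (SE 0.17, edgeR adjusted p = 0.00581) and Sema6d by 0.88 (SE 0.15, edgeR adjusted p = 0.0131) on the log2 scale. Sema4a gave 336.2, 340.5, 491 and 448 CPM in AST3 of cortex 1, cortex 2, hippocampus 1 and hippocampus 2. It overlapped AST2, at 373.8, 362.7 and 248.5 CPM, and AST1, at 254.7, 347.9, 224.97 and 249.4 CPM. Per kilobase of exon Sema4b averaged 42.2 CPM in AST3, 45.1 in AST2, 23.2 in AST1 and 6.74 in AST4. Sema6d averaged 16.3, 17.8, 14.1 and 3.75 CPM in the same order, so both were below AST2. The AST3 sums lay above or below all sums of the other subtypes for 0 members, against 0.277% of all genes. AST4 is 1 of the 3 subtypes in the reference of these contrasts, and AST3 was not compared without it. Leaving out any suspension left 1 of the 3 calls (0.584% to 1.59% of all genes were called), that of Sema4b without cortex 1 or hippocampus 2, Sema4a without cortex 2 and Sema6d without hippocampus 1. With sums of at least 5 cells Sema4b kept its call and Sema4a and Sema6d did not (edgeR adjusted p = 0.0652 and 0.194; 0.812% of all genes called). In AST1 no member was called against a background of 1.12% higher and 0.027% lower (1.15% in all). At an unadjusted p under 0.05 edgeR gave 4 members (8.67% of all genes), DESeq2 called 6 (11.3%) and limma on mean CPM 2 (0.903%). Without hippocampus 1 Sema6d was called higher in AST1 (edgeR adjusted p = 0.0373). The median log2 change was 0.04 over the members and 0.18 over all genes in AST1, −0.09 and 0.01 in AST2, and −0.17 and 0.10 in AST3.

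**Figure D4:**
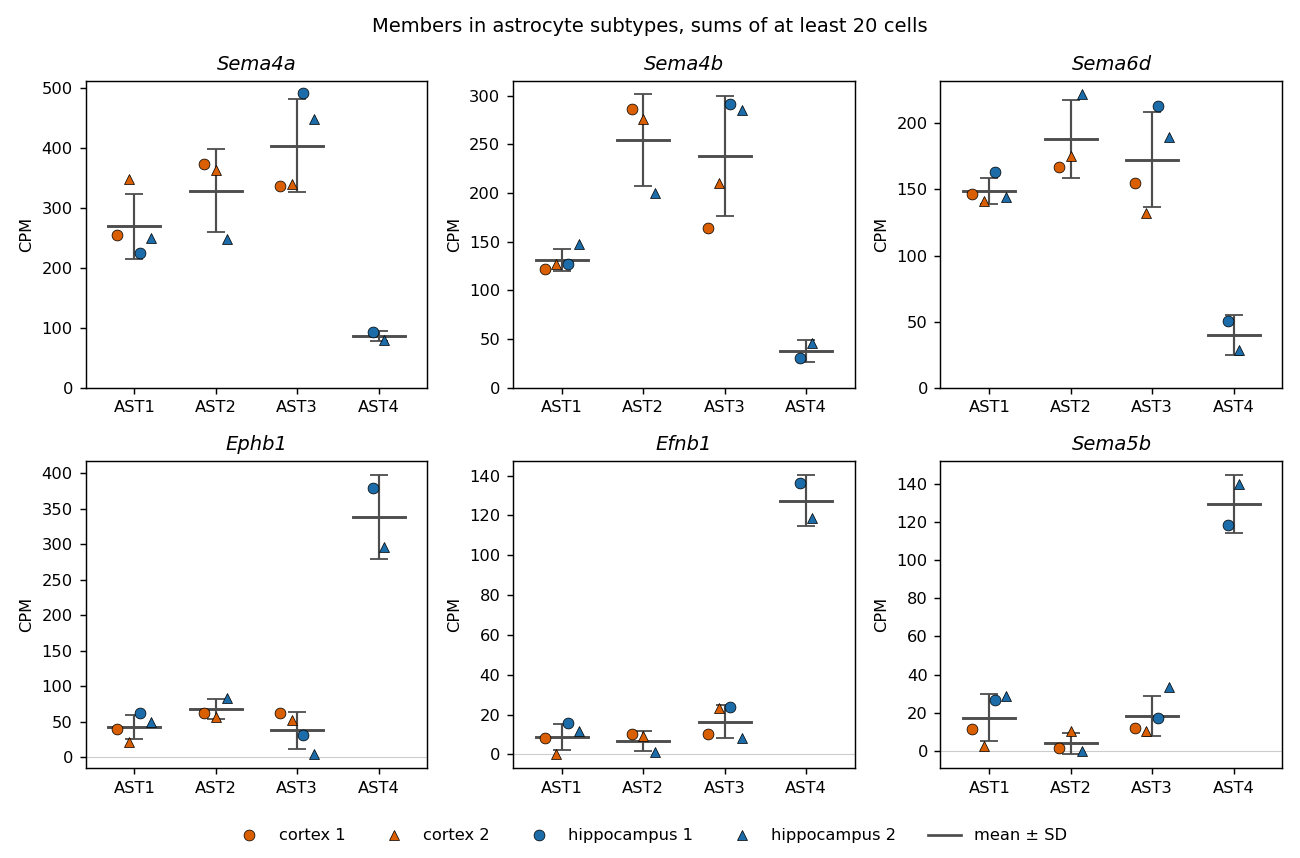
CPM of 6 members in sums of at least 20 cells of AST1 to AST4, with a point per suspension (colour for region, shape for replicate) and the mean ± SD. The AST4 sums of Sema4a, Sema4b and Sema6d lie below every sum of AST1 to AST3, and those of Ephb1, Efnb1 and Sema5b lie above them.

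AST5 was poor in members. Of the 67, 11 had a count in its 26 cells and a median of 1 member was found per cell. Sema4a was found in 0 of 26 cells, which allows a share of up to 11.5%, and Sema4b in 23.1%. Plxnb1 in 26.9% and Ephb1 in 23.1% were the most common beside it, and Ephb1 gave 122.8, 298.1 and 0 CPM in the AST5 sums of 8, 10 and 6 cells from cortex 1, cortex 2 and hippocampus 1. The median of genes found per AST5 cell was 1674.5 against 1992 to 2562 in the other subtypes, and its part in these shares was not tested.

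Hippocampal and cortical astrocytes were compared to ask whether guidance genes differ between brain areas. No member of 50 tested was called, against a background of 0.0% of 19160 genes. At an unadjusted p under 0.05 edgeR gave 12 members and 2609 genes (13.6%), and DESeq2 called 10 members against 9.7% of all genes. The median log2 change of hippocampus against cortex was 0.41 over the members and 0.01 over all genes.

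Both hippocampal sums lay above both cortical sums for 16 members, against 21.9% of all genes, and below both for 5, against 24.2%. Sema5b gave 8.75 and 9.61 CPM in cortex and 33.6 and 40.9 CPM in hippocampus, a log2 change of 2.04 (SE 0.21, edgeR adjusted p = 0.155). Efnb1 gave 9.90 and 12.9 CPM in cortex and 28.7 and 23.8 CPM in hippocampus (log2 change 1.22, SE 0.26, edgeR adjusted p = 0.231). Without the AST4 and AST5 cells these changes were 1.75 for Sema5b and 0.30 for Efnb1. The part of either subtype in these moves was not tested.

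In the sums of all typed astrocytes, which differ in subtype shares between areas, Sema4a and Sema4b were lower in hippocampus. Sema4a gave 267.7 ± 1.66 against 343.2 ± 7.53 CPM (SD, n = 2 each; log2 change −0.33, SE 0.06, edgeR adjusted p = 0.228) and Sema4b 157.6 ± 11.7 against 225.4 ± 13.1 CPM (log2 change −0.49, SE 0.10, edgeR adjusted p = 0.231). Without AST4 and AST5 cells the log2 changes were −0.17 and −0.32. Plxnb1 was 216.6 ± 0.514 CPM in hippocampus and 166.7 ± 16.5 CPM in cortex (log2 change 0.40, SE 0.09, edgeR adjusted p = 0.235), and Ephb3 82.1 ± 16.7 against 130 ± 8.02 CPM (log2 change −0.64, SE 0.18, edgeR adjusted p = 0.275). None of these values passed the adjustment. Sema6d was level, at 154.8 ± 16.1 and 155.6 ± 1.59 CPM.

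**Figure D5:**
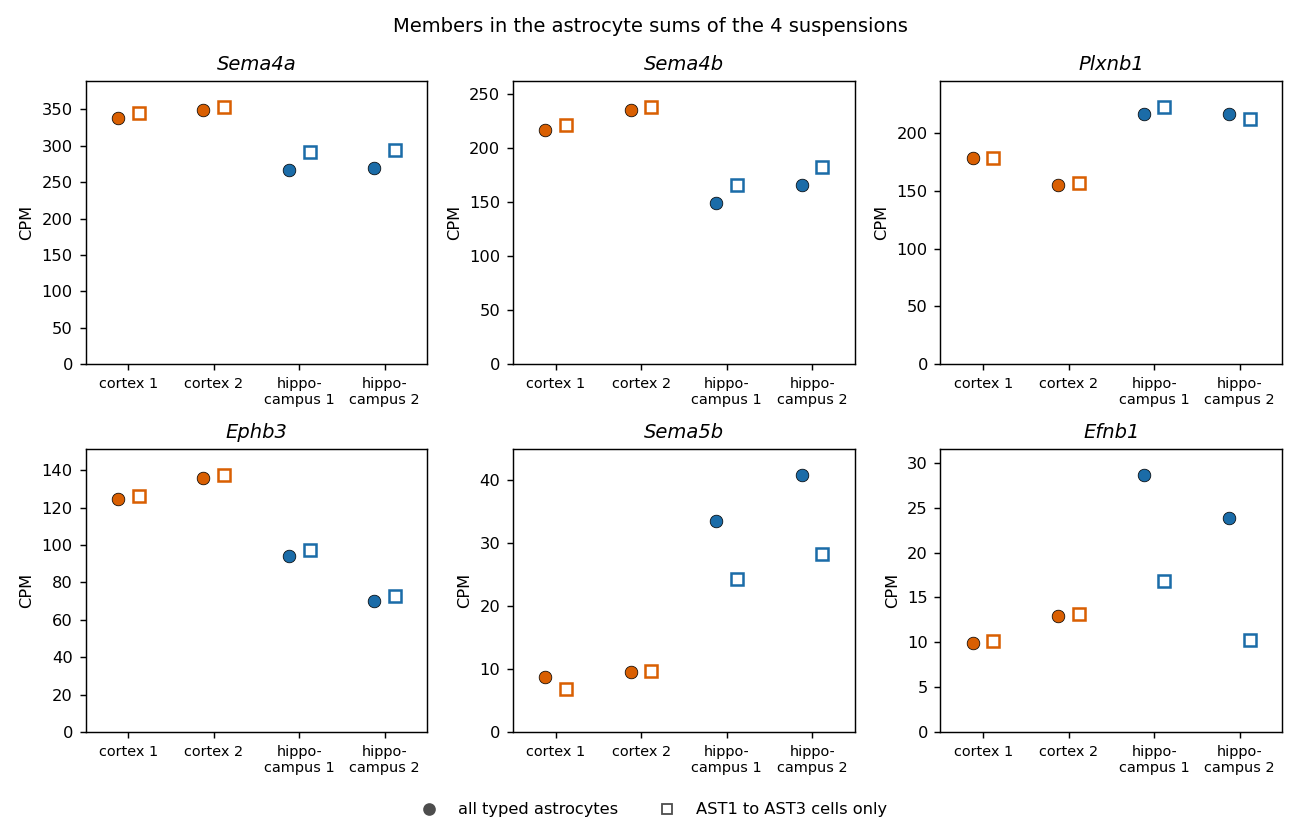
CPM of 6 members in the astrocyte sums of the 4 suspensions. Filled circles are all typed astrocytes and open squares AST1 to AST3 cells only. The gap between them is the change in level when AST4 and AST5 cells are left out. In hippocampus the filled circles of Efnb1 and Sema5b lie above their squares and those of Sema4a and Sema4b below, and Sema4a and Sema4b are lower in both hippocampal suspensions.

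Within AST1 and AST3, which were present in both areas, no member of 42 was called. The background was 0.0% in AST1 and 0.00581% in AST3, and at an unadjusted p under 0.05 edgeR gave 3 members in AST1 (8.42% of all genes) and 5 in AST3 (6.86%). DESeq2 called 5 members in AST1 (9.34% of all genes) and 9 in AST3 (7.45%). In AST3 Sema4a gave 469 ± 30.3 CPM in hippocampus and 338.3 ± 2.99 CPM in cortex, and Sema4b 288.9 ± 4.39 against 187.5 ± 32.5 CPM (SD, n = 2 each). In AST1 Sema4a gave 237.2 ± 17.3 against 301.3 ± 65.9 CPM. Within AST3 both members were thus higher in hippocampus, the reverse of their direction in all astrocytes. Within AST1 the mean of Sema4b was not lower in hippocampus. The part of the subtype shares in this was not tested. The median log2 change was 0.01 over the members and 0.17 over all genes in AST1, and 0.53 and −0.07 in AST3. The test of AST1 against AST3 in the difference of areas called 0 of 42 members by edgeR (background 0.0%), with 3 at an unadjusted p under 0.05 (9.06% of all genes) and 8 called by DESeq2 (9.78%).

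In mural cells the areas were compared for 27 members. None was called (background 0.0% of 10614 genes), with 5 at an unadjusted p under 0.05 by edgeR (9.05% of all genes) and 6 called by DESeq2 (12.9%). Here the median log2 change was 0.61 over the members and 0.23 over all genes. Sema6d, the leading mural semaphorin, gave 585 ± 215.7 CPM in hippocampus and 328.03 ± 120.9 CPM in cortex (SD, n = 2 each; log2 change 0.98, SE 0.43, edgeR adjusted p = 0.711).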

How the data were processed

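Single cells of mouse cortex and hippocampus were sequenced with Smart-seq2 in 4 suspensions on 32 plates. The deposited values are raw counts of reads per gene, which the authors obtained by mapping with STAR 2.5.2b to GRCm38.p5, with the Gencode annotation and ERCC sequences, and counting uniquely mapped reads with HTSeq; the submitters' processing notes also name FastQC 0.11.4. No molecular identifiers were used, so reads are not independent molecules, and limits given for shares of 0 (3 cells of the total) cover counting error only. A count of reads per exon depends on transcript length, so levels of different genes were compared per kilobase of exon. Reads in exons shared with an overlapping gene cannot be told apart, and such exons make up 10.71% of Plxna1, 14.13% of Efna3 and 23.42% of Ntn5, but 0% of Sema4b and Sema6d and 1.35% of Sema4a.

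The study's cell types, which it drew with Seurat from the same counts, were used as given; 15 cells without a type and 33 cells not in the list used here entered no comparison. Member counts in the series-wide table were compared with the files of 32 cells and none of 2144 differed; 1999 columns of that table were not used.

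Counts were summed per type and suspension (at least 3 cells, or 20 for subtypes) and tested in R 4.3.3 with edgeR 4.0.16 (TMM, low-count filter, quasi-likelihood fit with robust dispersion, region as covariate between types), with Benjamini-Hochberg adjustment over all genes tested and a threshold of 0.05. The fits left 5 residual degrees of freedom for mural and endothelial cells, 2 for neurons, 8 for subtypes, 4 for areas within AST1 and AST3 and 2 for areas in all astrocytes and in mural cells. Suspensions of a region share litter or preparation, so p-values measure the spread between these samples only. SE denotes the standard error of a fitted log2 change, and such a change against a group at 0 gives no size. In simulated sums, of 50 genes raised and 50 lowered by 6 on the log2 scale, 11 and 8 were called in the mural comparison (15887 genes), 2 and 0 in the endothelial (15474 genes) and 0 and 0 in the neuronal (16786 genes). At a change of 2 these comparisons called 0 either way, while in AST4 (18478 genes) 8 raised and 6 lowered genes were called. Far fewer genes were changed in the simulated sums than were called in the data. Those were 4360 in the mural, 5385 in the endothelial and 3587 in the neuronal comparison. The simulated sums also gave each unchanged gene the same mean level in all groups. The part of these differences in the shares of calls was not tested, so the shares are not carried over to the data.

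Sums of the same suspension come from the same animals, so the suspension pairs them by design; deviations of paired sums from their group means correlated between −0.029 and 0.018. Between areas the samples share only a replicate number. Alternatives were other size factors, DESeq2 1.42.0, no low-count filter, sums of at least 5 cells, the replicate block, thinning to 600000 counts per cell, limma 3.58.1 on log2 of mean CPM plus 1, and each suspension left out. Comparisons without AST4 and AST5 cells, or with hippocampal or cortical sums only, were chosen after seeing the data. The members and lists were chosen with earlier results of these data known. Named are the members called in any comparison, the leading member of each family in astrocytes and mural cells, the 3 members among the study's marker genes and, of the further pathway genes, those called with the lowest p; other members named beside them were chosen after their values had been seen. Tables and figures used Python 3.11.15, pandas 2.3.3, numpy 2.4.6 and scipy 1.17.1.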

Additional observations from a re-analysis of the deposited data

Results flagged for a closer look

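Robo4 in endothelial cells gave 766.0 CPM in hippocampus 1, far from the 105.7, 133.5 and 135.8 CPM of the other suspensions. The gap made up 0.954 of the range. Hippocampus 1 held 6 endothelial cells, of which 83.3% had a Robo4 count. Over 44 groups of 4 sums examined in this way, chance gives about 1 such value in 20 groups.

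The change of Ephb1 from cortex to hippocampus was 2.57 higher in AST1 than in AST3 on the log2 scale. In AST1 the mean was 55.6 CPM in hippocampus and 30.1 CPM in cortex, and in AST3 it was 17.9 and 57.6 CPM. The change of Sema4a differed in the opposite sense, with a value of −0.83 (SE 0.25) for AST1 minus AST3. In a test across all genes neither difference passed the adjustment.

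Cells outside the comparisons also held members. Of 15 cells without a type, 40% had a Sema4b count, and of 33 cells of cortex 1 not in the list of types, 93.9% had it. The latter share lay near the 96.5% of the typed astrocytes of that suspension. Sema4a was found in 42.4% and Sema6d in 39.4% of these 33 cells.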

How the results depend on the processing

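The number of members called varied with the test more than with the scaling. DESeq2 called 26 members in mural cells, 29 in neurons, 6 in AST1, 7 in AST2 (where it called 2592 of all 18503 genes), 7 in AST3 and 14 in AST4. Between areas it called 10 in astrocytes, 5 in AST1, 9 in AST3, 8 in the difference between AST1 and AST3, and 6 in mural cells, where edgeR called 0. The replicate block left 2 calls in mural cells, 1 in endothelial cells and 0 in neurons, and it changed no other count by more than 1.5 times. Between areas, where the samples share only a number, the fit with the replicate block called 0 members in every comparison, as without it. Limma on mean CPM gave 2 in AST1, 5 in AST3 and 12 in AST4. Neurons had 0 calls without the low-count filter, with thinned cells and without AST4 and AST5 cells. AST3 had 1 call with sums of at least 5 cells (0.812% of all genes), and AST2 had 0 with cortical sums only, where 0 of 16957 genes were called. Leaving out a suspension gave 3 to 14 calls in mural cells, 0 to 1 in AST1, 0 to 1 in AST2 and 1 in AST3, whichever suspension was left out, while of all genes 4.36% to 22.3%, 0.38% to 1.39%, 0.658% to 1.46% and 0.584% to 1.59% were called; the lowest mural count came without cortex replicate 1. The cause of these moves was not tested. For neurons no suspension could be left out, since no residual degrees of freedom remain. Of 1008 alternative values for 96 pairs of a member and a comparison (those called, or with a mean of at least 30 CPM and an unadjusted p under 0.05), 793 kept their direction and their side of the threshold, 48 gained the call, 1 changed sign and the rest lost the call. That value was the change of Ephb1 in astrocytes between areas, which was −0.12 without AST4 and AST5 cells. Over all members tested, 431 of 5483 alternative values had the opposite sign, and 0 of these were called by the test of that alternative. The number of members in more than 25% of astrocytes was 4 in all 5 alternatives. Few cells limit the smaller types: a count of 0 allows a share of up to 10% in endothelial cells and 17.6% in neurons.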

Other observations

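Microglia and oligodendrocytic cells numbered 11 and 9 cells and were not tested, and they also held members. Microglial sums held 395.4 to 8054 CPM of astrocyte markers, and 63.6% of microglia had 2 or more of these. Oligodendrocytic sums held 1191 to 1275 CPM of them, and 88.9% of these cells had 2 or more. The part of these markers in the values was not tested. In microglia Plxnb2 was found in 63.6% of cells (29.9% of mural cells), with 830.2, 308.9 and 7.09 CPM in the sums of 3 cells from cortex 1, cortex 2 and hippocampus 2. Sema4d, a class 4 semaphorin also known from immune cells, was found in 54.5% of microglia and 66.7% of oligodendrocytic cells and gave 135.3, 464 and 313.5 CPM in the same microglial sums. In oligodendrocytic cells the ephrin Efnb3 was found in all 9 cells, with 254.7 and 283.1 CPM in hippocampus 1 and hippocampus 2. Plxnb3, a plexin known from oligodendrocytes, was found in 88.9% and gave 417 and 551 CPM there.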
